A study of Bos taurus with 48 samples.

Results

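The data described here are miRNA-seq values of cattle (Bos taurus) liver, with 12 samples from animals fed milk replacer set against 5 samples from animals of the control group. The 12 samples were taken by their treatment labels, 6 ad libitum (milk replacer without limit) and 6 restricted (a limited amount of it), out of 48 samples of the series, which also holds mammary parenchyma and mammary fat pad. Milk replacer is a milk substitute on which calves are reared. The diet of the control group, the breed and the age of the animals, and whether a sample stands for 1 animal are not stated in the labels, so that the p-values measure the spread between these samples. Tissue was collected directly after slaughter, and all groups shared the same RNA and library protocol. Each value is a normalized read count, meaning the reads of a mature miRNA divided by 1 size factor per library, and the smallest value above 0 stands for 6 reads, so that a miRNA listed at 0 can have had up to 5 reads. Of 524 miRNAs in the table, 399 were above 0 in at least 1 liver sample and 239 in all 17 of them, while 309 had a mean of at least 10 and were tested with limma on log2(value + 1). Milk replacer against control is the mean of the ad libitum and restricted differences from control on that scale, and a miRNA was called with a Benjamini-Hochberg adjusted p under 0.05.

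The libraries held 826776 to 5146724 estimated reads. The 12 milk replacer samples held 2762560 ± 1410280 (SD) and the 5 control samples 3190970 ± 799989, a difference within the spread (exact permutation test, two-sided, p = 0.53). The number of miRNAs above 0 was 261 to 338 with milk replacer and 301 to 351 in control (exact permutation test, p = 0.118). The sum of the normalized values was higher with milk replacer, at 5617330 ± 865635 against 4765780 ± 597114 (exact permutation test, p = 0.0236). Ad libitum replicate 6 was the shallowest library, and in it 5 reads are worth a value of 31, against 4.73 in control replicate 1. The tissue label was borne out by miR-122, the miRNA that defines hepatocytes, which ranged from 284363 to 987770 in the liver samples of the milk replacer groups and from 0 to 3798 in the fat pad samples of the same feeding groups.

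A miRNA is a short RNA that pairs through its seed, bases 2 to 8, with messenger RNAs and lowers their translation or stability. A large share of the miRNAs described here come from the DLK1-DIO3 region, an imprinted region in which protein-coding genes such as DLK1 are read from the paternal chromosome, and long noncoding RNAs with many miRNAs from the maternal one. These miRNAs are known for high levels in placenta, embryo and brain, and deletion of the miR-379/miR-410 group in mice disturbs energy supply from the liver around birth. The order of their genes, read from RefSeq on the ARS-UCD2.0 assembly, splits them into a proximal run from miR-493 to miR-370 and a distal run from miR-379 to miR-656, taking a gap above 50 kb as the border. Of 60 miRNAs on the list for this region, 52 were in the table, and all 52 matched a RefSeq gene. The sources used here hold the letters of miR-433 from the proximal run, and of miR-215, a liver and gut miRNA close to miR-192. They are shown as examples of a member of the region and of a liver miRNA, since the letters of the called miRNAs are not held. Both are the mature sequences listed by the study for the qPCR assays of these names, written 5′ to 3′ as DNA with the seed in capitals.
miR-433: aTCATGATgggctcctcggtgt
miR-215: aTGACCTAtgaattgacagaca

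In the liver of animals fed milk replacer, miRNAs of the DLK1-DIO3 region and of the miR-378 family were lower than in control, and miR-31, miR-103, miR-146b and miR-2898 were higher. Of 309 miRNAs tested, 5 were higher (1.62%) and 16 lower (5.18%), which together is 6.8% of those tested. Of the 16 lower calls, 13 were DLK1-DIO3 miRNAs and the other 3 were miR-378-1, miR-378-2 and miR-378c. The 5 higher calls were miR-31, miR-146b, miR-2898 and the copies miR-103-1 and miR-103-2, which share reads and are not independent. When each library was divided by the sum of its values, the calls were 1 higher, miR-31, and 25 lower, so that the calls of miR-103, miR-146b and miR-2898 depended on the deposited scaling. In bulk tissue, fewer cells of a type and less RNA per cell cannot be told apart. The milk replacer and control ranges did not overlap for 8 of 309 miRNAs with all milk replacer samples lower (2.59%), and for 1 with all of them higher (0.324%). All 8 of the former were DLK1-DIO3 miRNAs, and the latter was miR-31, whose ranges overlapped when each library was divided by its sum. The count of calls depended on single libraries. It was 9 without control replicate 18 or without control replicate 21, 11 without control replicate 2, 12 without control replicate 1, ad libitum replicate 3 or restricted replicate 16, and 13 without ad libitum replicate 11.

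**Figure D1:**
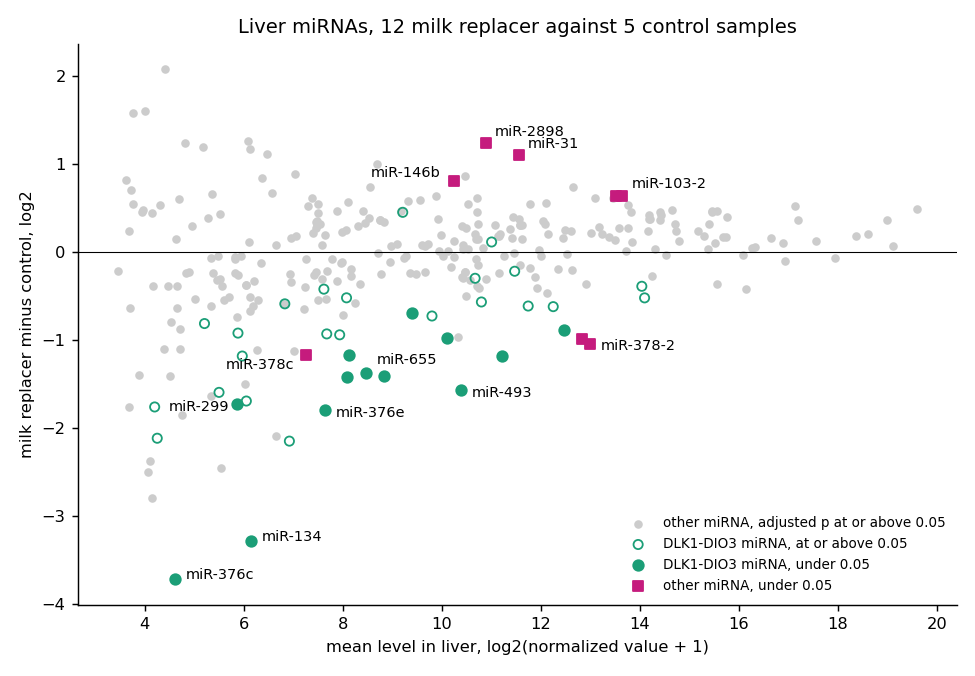
Difference of milk replacer (12 samples) minus control (5 samples) on the log2 scale against the mean level in liver, 1 point for each of 309 tested miRNAs. Green points are DLK1-DIO3 miRNAs, filled where the adjusted p was under 0.05, and 34 of the 36 lie below 0. The squares are the other calls, miR-378 below 0 and miR-31, miR-103, miR-146b and miR-2898 above it.

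Among the 36 tested DLK1-DIO3 miRNAs, 13 were called lower and 34 had a negative difference, against 16 lower calls (5.18%) and 150 negative differences (48.5%) among all 309 tested, and their median was -0.94 on the log2 scale, against 0.03 for all tested. No member was called higher and 23 were not called. The call was made for 1 of 6 tested members of the proximal run (median difference -0.68) and for 12 of 30 of the distal run (median -0.95). The list was chosen with earlier results of these data known. Another 10 members were above 0 in at least 1 liver sample but too low to be tested, and 6 of the 52 were listed at 0 in every liver sample. The number of the 36 called lower was 13 with all libraries. It fell to 6 without control replicate 18 or 21, to 7 without control replicate 2, and to 8 without control replicate 1, ad libitum replicate 3 or 11, or restricted replicate 4 or 16.

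miR-655 had the lowest adjusted p together with miR-380-3p. Its values in control replicates 1, 2, 18, 19 and 21 were 552, 593, 716, 477 and 752. In the ad libitum samples the lowest, median and highest values were 161, 261 and 352, and in the restricted samples 172, 209.7 and 297. All samples of both feeding levels lay below all control samples. The means were 241 ± 59.3 (SD, n = 12) with milk replacer and 618 ± 115 (n = 5) in control, a log2 difference of -1.37 (SE 0.22, adjusted p = 0.00116).

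miR-380-3p is an arm of a hairpin whose other arm, miR-380-5p, is known to repress p53. It was at 614, 714, 869, 970.1 and 797 in control. The values ranged from 229 to 543 (median 390.1) in ad libitum and from 172 to 336 (median 224) in restricted samples. The log2 difference of milk replacer from control was -1.41 (SE 0.24, adjusted p = 0.00116), again with no overlap between the 12 and the 5 samples.

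miR-411b was at 394, 583, 512, 341 and 592 in control, between 125 and 260.3 (median 181) in ad libitum and between 125 and 281 (median 138) in restricted samples. The highest milk replacer sample thus stayed below the lowest control, and the log2 difference was -1.43 (SE 0.26, adjusted p = 0.00183). miR-376e fell further, with 359, 379.8, 514, 244 and 455 in control, 98.7 to 182 (median 122) in ad libitum and 34 to 190.3 (median 104) in restricted samples. Its log2 difference was -1.79 (SE 0.34, adjusted p = 0.00183), and the ranges did not overlap.

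miR-493, the first miRNA of the proximal run, was called as well. Control values were 2401, 3106, 1871, 2088 and 2670.5, and the ad libitum samples ranged from 514 to 2003 (median 879) and the restricted ones from 446 to 1414 (median 725). A single milk replacer sample, ad libitum replicate 7, reached the control range. The log2 difference was -1.57 (SE 0.29, adjusted p = 0.00183).

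miR-369-3p, near the end of the distal run, was at 2666, 3157, 4498, 5112 and 3798 in control. It ranged from 806 to 3389 (median 1666) in ad libitum and from 1088 to 2302 (median 1655) in restricted samples, with ad libitum replicate 11 inside the control range. Its log2 difference was -1.18 (SE 0.26, adjusted p = 0.00758). miR-655, miR-380-3p, miR-411b, miR-376e, miR-493, miR-369-3p and miR-378-2 were called in all 17 fits that left out 1 library, and in all 13 alternative settings.

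**Figure D2:**
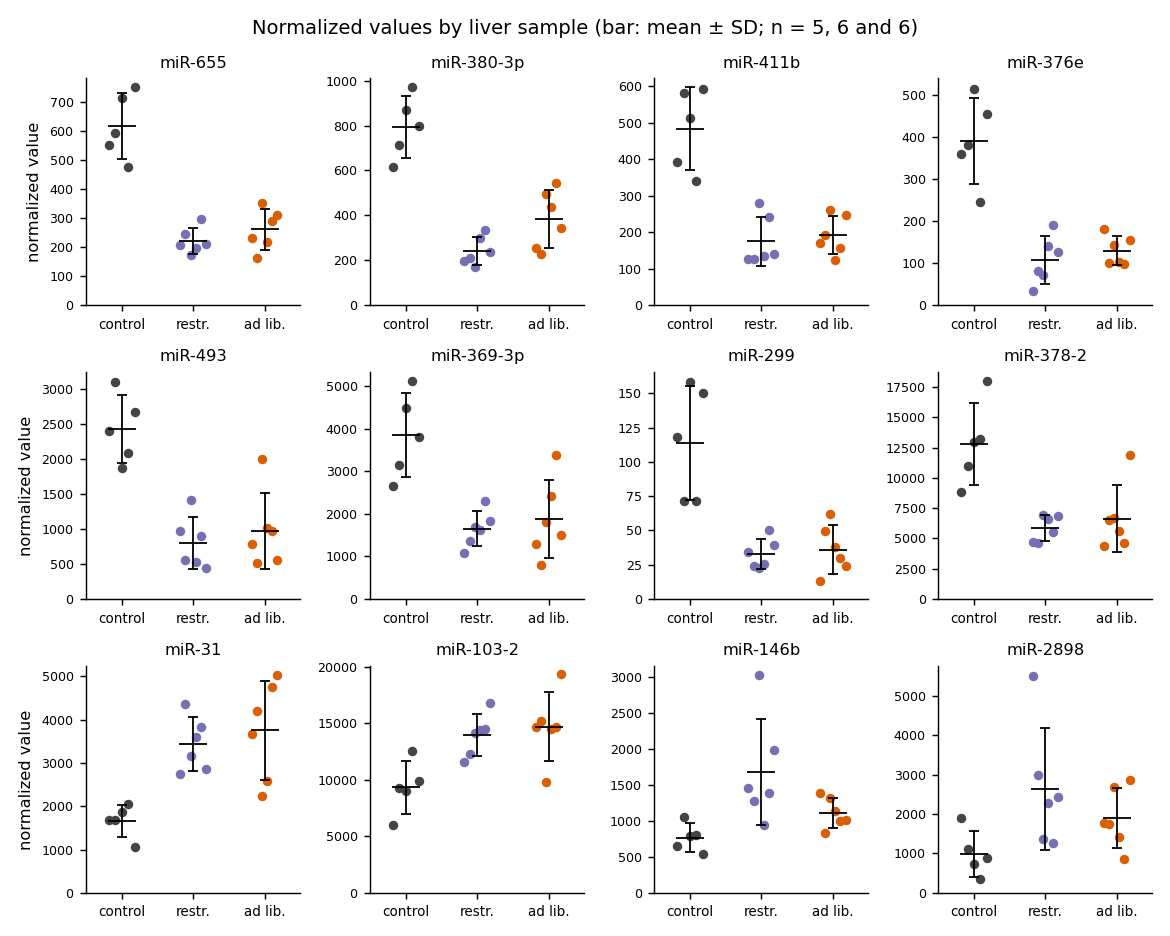
Normalized values of 12 called miRNAs in each liver sample, on linear axes from 0, with the mean and SD of the 5 control, 6 restricted and 6 ad libitum samples. The first 7 panels are DLK1-DIO3 miRNAs, and for miR-655 every milk replacer sample lies at or below 352 and every control sample at or above 477. miR-31 shows the opposite order.

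The largest differences belonged to low-abundance members, where the depth limits the precision. miR-134, known from neurons as a regulator of LIMK1 and dendritic spines, was at 111, 239, 170.2, 125 and 229 in control, and at 0 to 52.3 with milk replacer. It was listed at 0 in ad libitum replicate 6 and in restricted replicate 5, where 5 reads are worth 31 and 17.4. The log2 difference was -3.28 (SE 0.85, adjusted p = 0.0258). miR-376c was at 39.8, 54.8, 71.7, 47 and 72.3 in control, and listed at 0 in 6 of 12 milk replacer samples, with a highest value of 29.9 in the rest. Its log2 difference of -3.72 (SE 1.08, adjusted p = 0.0459) rests on the pseudocount for those 6 samples. Group means were 9.48 ± 11.4 (SD, n = 12) and 57.1 ± 14.6 (n = 5), so that it passed the filter, a mean of at least 10, through the control samples.

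miR-299 did not fall to 0 in any sample. It was at 118, 71.2, 158, 71.7 and 149.8 in control, and at 13.1 to 62.3 with milk replacer, again without overlap, and its log2 difference was -1.73 (SE 0.41, adjusted p = 0.0114). miR-1185 is a further distal member that was too low to be tested. It was listed at 0 in all 12 milk replacer samples and was at 18, 29.2, 18.2, 13.4 and 32.7 in control. Likewise miR-376b was at 0 in all 12 and above 0 in 4 of 5 control samples, with a highest value of 25.8. Both were picked out after their values were seen.

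Smaller differences past the threshold were found for miR-382 (log2 difference -1.17, SE 0.35, adjusted p = 0.0488), miR-411c-5p (-0.98, adjusted p = 0.0485), miR-379 (-0.88, adjusted p = 0.0479) and miR-487b (-0.70, adjusted p = 0.0456). Each of these ranged into the control values in at least 1 milk replacer sample and lost the call in 10 or more of the 17 fits without 1 library. The members of highest level, miR-411a and miR-127, were not called. miR-127, which lies antisense to RTL1, had means of 15667 ± 5023 (SD, n = 12) and 19722 ± 1962 (n = 5), with a log2 difference of -0.39 (SE 0.20, adjusted p = 0.308). For miR-411a the means were 15834 ± 6894 and 21583 ± 4423, with a log2 difference of -0.52 (adjusted p = 0.257). miR-433, whose sequence is given above, had means of 183 ± 87.8 and 226 ± 56.9, a log2 difference of -0.42 (adjusted p = 0.566). The 2 members with a positive difference were miR-370 (0.45, adjusted p = 0.476) and miR-543 (0.11, adjusted p = 0.861). miR-411a, miR-411b and miR-411c, like the members of the miR-376 group, resemble each other in sequence, and how reads were shared between them is not given in the sources used here.

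Summed over the whole list, the DLK1-DIO3 miRNAs took 0.706% to 1.65% of the estimated reads in the 12 milk replacer samples and 1.29% to 2.15% in the 5 control samples. The group means were 1.18% ± 0.345 (SD, n = 6) for ad libitum, 0.933% ± 0.144 (n = 6) for restricted and 1.81% ± 0.348 (n = 5) for control. The ranges of restricted and control samples did not overlap, while ad libitum replicates 7 and 15 lay above control replicate 19. The 95% Wilson interval of each share was at most 0.02 percentage points to either side, which covers counting error only. Over the 27 members above 0 in every liver library, the mean of log2(value + 1) was 9.23 ± 0.346 (n = 12) with milk replacer and 10.04 ± 0.176 (n = 5) in control. This score is a description of the same values and was not tested. The deepest milk replacer libraries, ad libitum replicates 9 and 7 and restricted replicate 16, had shares of 0.936%, 1.65% and 0.706%. With log2 estimated reads as a covariate, the DLK1-DIO3 miRNAs called lower were 9 for milk replacer, 2 for ad libitum and 10 for restricted feeding against control.

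**Figure D3:**
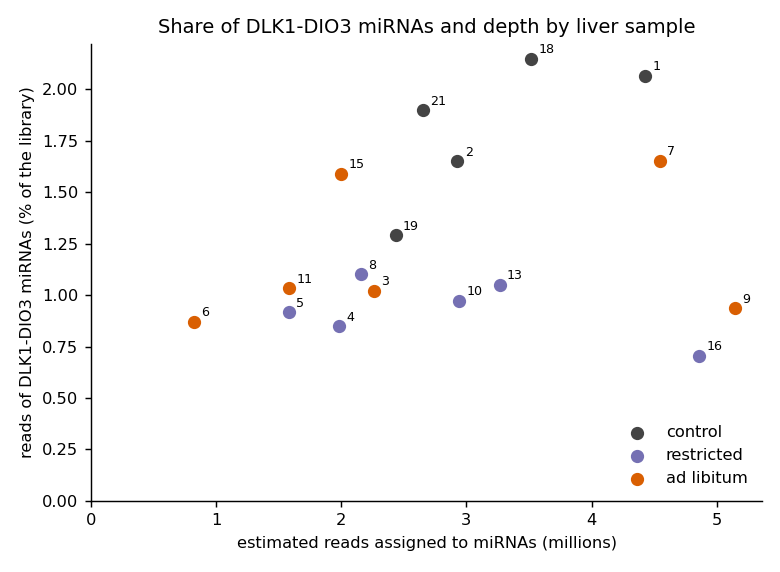
Share of the estimated reads taken by the DLK1-DIO3 miRNAs, in percent, against the estimated reads of the library, for the 17 liver samples with their replicate numbers. The restricted samples lie between 0.706% and 1.10%, below all control samples. Ad libitum replicates 7 and 15 lie among the control samples.

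The miR-378 family was the other group to fall. A gene of this family, though not every one, lies in an intron of PPARGC1B, the gene of PGC-1 beta. miR-378 is known as a regulator of mitochondrial and lipid metabolism. miR-378-2 was at 8859.8, 10964, 12960.2, 13245 and 18025 in control, with 4351 to 11924 (median 6073) in ad libitum and 4619.7 to 6915 (median 6103) in restricted samples. The restricted samples all lay below control, and 1 ad libitum sample, replicate 15, reached into its range. The means were 6253 ± 2038 (SD, n = 12) and 12811 ± 3407 (n = 5), a log2 difference of -1.05 (SE 0.21, adjusted p = 0.00346). miR-378-1 is a copy that shares its reads. miR-378c was at 191, 285, 231, 206 and 296 in control and at 49.4 to 203 with milk replacer, a log2 difference of -1.17 (SE 0.32, adjusted p = 0.0407). Of the 4 family members on the list, both tested were called, miR-378b had means of 1.19 and 1.46 and was not tested, and miR-378d was listed at 0 in all 12 milk replacer samples with a control mean of 4.98.

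Of the higher miRNAs, miR-31 separated the groups fully on the deposited scale. miR-31 is best known from epithelial cells and fibroblasts. It was at 1679, 1687, 1876, 2043 and 1061 in control, at 2228 to 5043 (median 3945) in ad libitum and at 2744 to 4376 (median 3386) in restricted samples. All milk replacer samples were above all control samples. The means were 3592 ± 895 (SD, n = 12) and 1669 ± 372 (n = 5), and the log2 difference was 1.10 (SE 0.21, adjusted p = 0.00184). It was called in all 17 fits without 1 library and in all 13 alternative settings. With each library divided by its sum, the log2 difference was 0.86 (adjusted p = 0.0258) and the ranges of the groups overlapped.

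miR-103-2 was at 5976, 9266, 8980.1, 12539 and 9897 in control. miR-103 and its relative miR-107 are read from introns of pantothenate kinase genes and lower insulin sensitivity in mouse liver and fat. miR-103-2 ranged from 9779.8 to 19408 (median 14690.4) in ad libitum and from 11558 to 16830.1 (median 14272) in restricted samples, so that the groups overlapped. The log2 difference was 0.64 (SE 0.18, adjusted p = 0.0407), called in 8 of 17 fits without 1 library. Divided by the sum of each library it was 0.41 (adjusted p = 0.274). miR-107 differed by 0.54 (adjusted p = 0.0792). Of the 4 tested members of the insulin and glucose list, miR-103-2 was called and miR-26a (0.17, adjusted p = 0.569) and miR-26b (0.04, adjusted p = 0.937) were not.

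miR-146b is known to dampen signalling through TRAF6 and IRAK1. It was at 654, 1059, 783, 802 and 537 in control, 824 to 1385 (median 1069.9) in ad libitum and 948 to 3023 (median 1419.7) in restricted samples. The log2 difference was 0.80 (SE 0.23, adjusted p = 0.0459), called in 7 of 17 fits without 1 library, and 0.57 (adjusted p = 0.103) after division by the sum. miR-2898, first named in cattle, was at 1897, 1105, 721, 343 and 890.2 in control and at 869 to 5499 with milk replacer, with a log2 difference of 1.24 (SE 0.36, adjusted p = 0.0466). Its groups overlapped widely, and it was called in 5 of 17 such fits. After division by the sum its adjusted p was 0.143.

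Each feeding level was then compared with the same 5 control samples. Ad libitum differed from control in 1 miRNA that was higher, miR-31 (0.324%), and in 10 that were lower (3.24%), together 3.56% of 309. Restricted differed in 6 that were higher (1.94%) and 15 that were lower (4.85%), together 6.8%. After division of each library by its sum the restricted calls were 0 higher and 28 lower, with the median of all 309 at -0.23. Both comparisons called 10 miRNAs in common, 1 was called for ad libitum alone and 11 for restricted alone, and these counts share the control samples. For the DLK1-DIO3 miRNAs, 7 of 36 were called lower with ad libitum (median difference -0.81) and 12 of 36 with restricted feeding (median -0.99). Between the feeding levels themselves limma called 0 of 36, with 1 at an unadjusted p under 0.05, and the median difference of ad libitum minus restricted was 0.19. These counts depended on control replicate 21. Without it, limma gave 0 calls for ad libitum, with 40 miRNAs at an unadjusted p under 0.05, and 5 calls for restricted feeding, all 5 of them lower DLK1-DIO3 miRNAs.

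Other libraries moved these counts as well. The ad libitum count was 3 without control replicate 18, 6 without ad libitum replicate 3 and 17 without control replicate 19, and its DLK1-DIO3 count was 2 without control replicate 18 and 4 without ad libitum replicate 3. The restricted count was 8 without control replicate 18, 10 without control replicate 1 or 19 or restricted replicate 10, 11 without restricted replicate 4 or 5, 33 without ad libitum replicate 6 and 35 without ad libitum replicate 15. Its DLK1-DIO3 count was 5 without control replicate 18, and 6 without control replicate 1 or 19 or restricted replicate 4, 5 or 10.

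**Figure D4:**
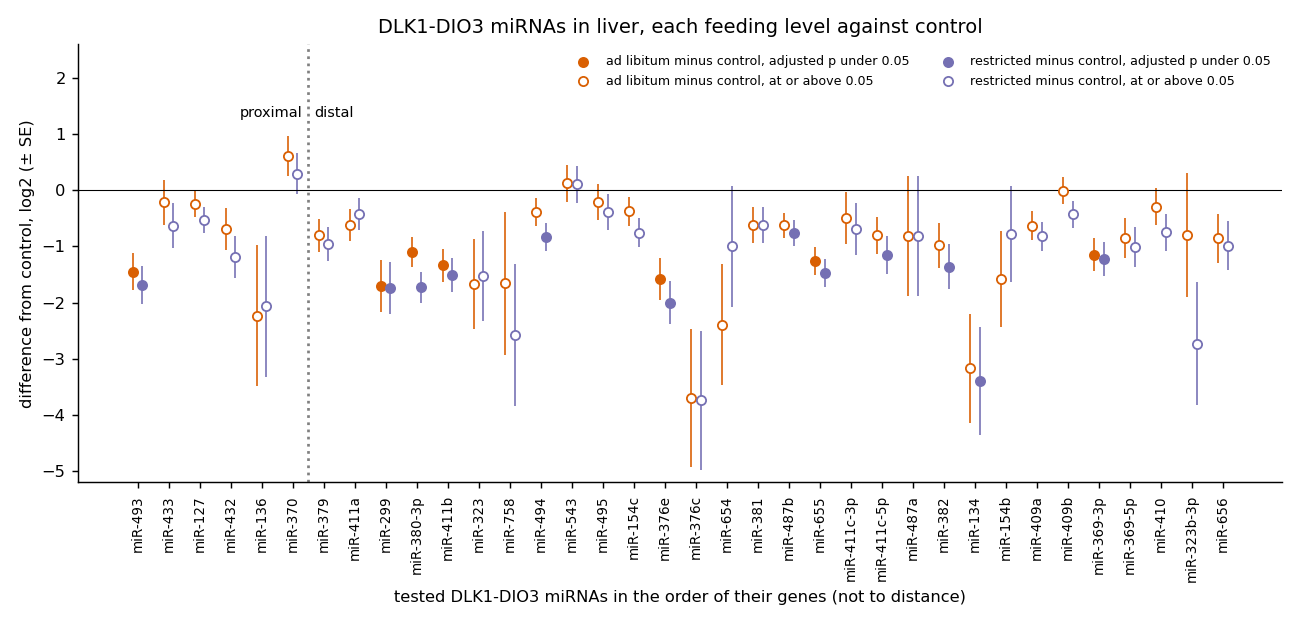
Difference from control on the log2 scale (± SE) of the 36 tested DLK1-DIO3 miRNAs in the order of their genes, orange for ad libitum and violet for restricted feeding, filled where the adjusted p was under 0.05. Distances along the axis are not to scale, and both feeding levels share the 5 control samples. miR-493 is called in the proximal run, and the other calls lie in the distal run.

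The 10 miRNAs called at both feeding levels differed from control with the same sign at each. For miR-655 they were -1.27 (adjusted p = 0.0159) with ad libitum and -1.48 (adjusted p = 0.00137) with restricted feeding. For miR-376e they were -1.58 (adjusted p = 0.026) and -2.01 (adjusted p = 0.00353), and for miR-299 -1.71 (adjusted p = 0.0419) and -1.74 (adjusted p = 0.0293). For miR-31 they were 1.14 (adjusted p = 0.0159) and 1.05 (adjusted p = 0.0106), the latter falling to 0.74 (adjusted p = 0.103) when each library was divided by its sum. Without control replicate 21, miR-31 missed the threshold at both levels, with 0.98 and 0.90. miR-378-2 was lower at both (adjusted p = 0.026 with ad libitum and 0.01 with restricted feeding). The 95% interval of ad libitum minus restricted ran from -0.29 to 0.71 for miR-655, from -0.33 to 1.18 for miR-376e, from -0.39 to 0.56 for miR-31 and from -0.38 to 0.58 for miR-378-2. miR-380-3p was higher with ad libitum by 0.63 (95% interval 0.09 to 1.17), but this missed the threshold after adjustment over 309 miRNAs.

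miR-133a, a miRNA of striated muscle, was the single call between the feeding levels (0.324% of 309). It was at 29.9 to 129 (median 69.6) in ad libitum, 143 to 436 (median 261) in restricted and 271, 214, 152, 129.9 and 215 in control samples. The ad libitum samples all lay below the other groups, though the highest of them was just below control replicate 19. The log2 difference was -1.87 (95% interval -2.68 to -1.06, adjusted p = 0.0325) against restricted and -1.48 (adjusted p = 0.0477) against control. For the restricted samples against control it was 0.39 (adjusted p = 0.657). The other tested muscle miRNAs had negative differences of ad libitum from control that did not pass the threshold, -1.65 for miR-1 (adjusted p = 0.169) and -0.94 for miR-499 (adjusted p = 0.357). The call between feeding levels was lost without any 1 of ad libitum replicates 6, 7 or 9, restricted replicates 4, 8 or 10, or control replicate 21, and the call against control was lost in 12 of 17 fits without 1 library. The call between feeding levels was also lost with a pseudocount of 0.1, without a filter, after division by the sum, with sample weights, in thinned libraries and with the samples of the 2 groups only. The summed muscle list was 184 to 1539 in ad libitum, 993 to 3625 in restricted and 1305 to 3119 in control, and its part in the result was not tested.

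Another 5 miRNAs were called higher with restricted feeding and not with ad libitum. Of the 17 fits without 1 library, the call was kept in 11 for miR-29d-3p and in 14 for miR-146b. It was kept in 9 for miR-2898, in 7 for miR-146a and in 7 for miR-92a-1. After division of each library by its sum, no miRNA was called higher with restricted feeding. miR-29d-3p, of the miR-29 family that represses collagens, was at 93.3 to 191 (median 121) in restricted, 39.4 to 116 (median 84.5) in ad libitum and 49.2, 69.4, 48.6, 22.4 and 48.2 in control samples. The difference from control was 1.48 (adjusted p = 0.0293) in restricted and 0.74 (adjusted p = 0.399) in ad libitum samples, and the 95% interval of ad libitum minus restricted was -1.51 to 0.03. For miR-146a it was 1.03 (adjusted p = 0.0456) and 0.45 (adjusted p = 0.533), for miR-146b 1.06 (adjusted p = 0.0211) and 0.55 (adjusted p = 0.365), for miR-2898 1.44 (adjusted p = 0.0456) and 1.04 (adjusted p = 0.217), and for miR-92a-1 0.61 (adjusted p = 0.0456) and 0.35 (adjusted p = 0.399). The intervals of the difference between feeding levels held 0 for all 5, so a difference between the levels was not shown for these. All 6 tested members of the miR-29 family were lower with ad libitum than with restricted feeding (median -0.82), against 161 of all 309. In limma 4 of the 6 had an unadjusted p under 0.05, against 15 of all 309, and 0 were called. The 6 and the 4 both hold miR-29b and miR-29e, which count as 1 measurement. miR-29d-5p, also among the 4, was listed at 0 in ad libitum replicates 6 and 11. miR-29b, whose values equal those of miR-29e, differed by -0.91 (95% interval -1.43 to -0.39, adjusted p = 0.149). The summed list of immune cell miRNAs holds miR-146a and miR-146b. It was 17782 to 42087 in restricted, 12496 to 25343 in ad libitum and 12323 to 16578 in control samples. All restricted samples exceeded all control samples on the deposited scale, but not when each library was divided by its sum. Of its 7 tested members, 2 had a negative difference of restricted from control. The part of immune cells in these differences was not tested.

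The miRNAs that carry most of the reads in liver did not pass the threshold. The 10 of highest mean were miR-148a, miR-122, miR-192, miR-143, miR-26a, miR-21-5p, miR-126-3p, miR-30a-5p, miR-99a-5p and miR-27b, and none was called in milk replacer against control. The 10 most abundant miRNAs of each library held 61.7% to 71.8% of its values. miR-148a, which lowers LDL receptor levels, had means of 879023 ± 311997 (SD, n = 12) and 606751 ± 115701 (n = 5), a log2 difference of 0.49 (SE 0.20, adjusted p = 0.186), with restricted replicate 8 at 1711150. miR-122 had means of 580264 ± 213445 and 544810 ± 213922, a log2 difference of 0.07 (SE 0.27, adjusted p = 0.91). The sum of values was 4766830 to 8068260 with milk replacer and 4187680 to 5454230 in control, so that dividing by the sum of each library moved the median difference of all 309 from 0.03 to -0.19 and that of the 36 DLK1-DIO3 miRNAs from -0.94 to -1.14. The 25 lower calls under that scaling held 19 DLK1-DIO3 miRNAs.

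The other lists gave few calls in milk replacer against control. None of 6 tested hepatocyte miRNAs (median difference 0.23) and none of 6 tested lipid and cholesterol miRNAs (0.21) was called. The same held for 10 of the let-7 family (0.12), 9 of the miR-17-92 and miR-106b-25 clusters (-0.04), 5 of the miR-424 and miR-503 cluster (-0.28), 6 of the miR-29 family (0.37) and 2 imprinted growth miRNAs outside the region, miR-483 and miR-335 (-0.29). Neither of the 2 tested p53 and hypoxia miRNAs was called (-0.13). At an unadjusted p under 0.05 were 59 of all 309 tested, among them 3 of the let-7 family, 1 hepatocyte miRNA, 1 of the miR-17-92 and miR-106b-25 clusters and 1 of the miR-29 family. miR-215 differed by 0.18 (adjusted p = 0.704). miR-29b and miR-29e had identical values in the liver and count as 1 measurement.

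Markers of other cells in the tissue were examined in the same way. None of 7 stellate and stromal miRNAs (median difference 0.17), 2 arms of the endothelial miR-126 (-0.17), 3 erythroid miRNAs (-0.32) or 3 muscle miRNAs (-0.65) was called, with 1 erythroid miRNA at an unadjusted p under 0.05. Of 7 immune miRNAs (median 0.61), miR-146b was called higher, while miR-142-5p (0.61) and miR-150 (0.61) both had an adjusted p of 0.186, and 4 of the 7 had an unadjusted p under 0.05, against 59 of all 309. The summed immune list ranged from 12496 to 42087 with milk replacer and from 12323 to 16578 in control. Of 10 epithelial and biliary miRNAs, 9 had a negative difference (median -0.38) and miR-31 alone was called. The summed erythroid list ranged from 2095 to 10059 with milk replacer and from 3562 to 7073 in control. The part of these cells in the differences was not tested.

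The same feeding contrast was measured in the mammary fat pad, with 12 milk replacer and 4 control samples. Mammary parenchyma was left out, because its control samples were already known to have low epithelial miRNAs. The difference between liver and fat pad was tested in a single fit over 33 samples. It was called for 32 of 325 miRNAs (9.85%), 7 with a higher (2.15%) and 25 with a lower difference (7.69%) in liver than in fat pad, and 20 of those 25 were DLK1-DIO3 miRNAs. All 13 DLK1-DIO3 miRNAs called in the liver were among them, and of all 21 liver calls 15 passed. The tissue difference contains the liver difference by which these miRNAs were selected, so their passing is not separate support. After division of each library by its sum the calls between tissues were 0 higher and 49 lower, with the median of all tested at -0.34. The 7 higher calls thus depended on the deposited scaling. In the fat pad itself, 16 of 325 miRNAs were called (4.92%), 14 higher (4.31%) and 2 lower (0.615%). Of the DLK1-DIO3 miRNAs, miR-370 (1.70), miR-543 (1.27) and miR-409b (0.83) were higher and 0 were lower, and the median over 41 tested members was 0.31. For miR-655 the fat pad difference was 0.14 (adjusted p = 0.782) and the liver minus fat pad difference -1.51 (adjusted p = 0.00106). For miR-380-3p they were 0.20 (adjusted p = 0.727) and -1.61 (adjusted p = 0.00153), and for miR-299 0.29 (adjusted p = 0.699) and -2.01 (adjusted p = 0.00249). The fat pad levels of miR-655 were 331 to 693 with milk replacer and 328 to 494 in control. Without fat pad control replicate 21 the tissues differed in 17 miRNAs, without liver control replicate 18 or fat pad control replicate 19 in 18, and without liver control replicate 1 in 19.

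**Figure D5:**
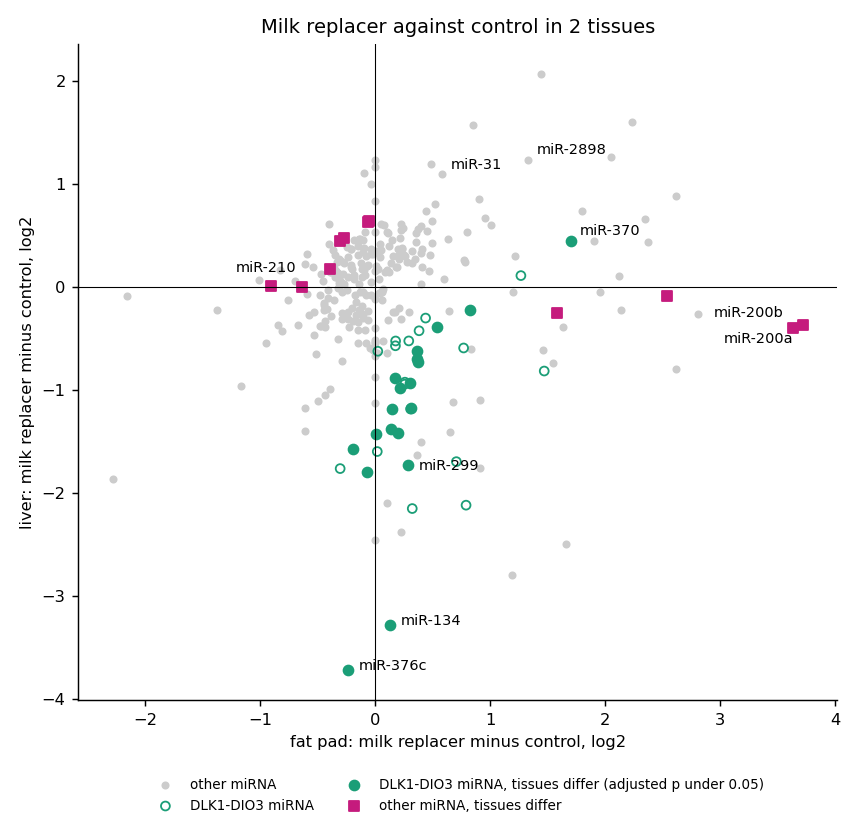
Difference of milk replacer minus control on the log2 scale in liver (vertical) and fat pad (horizontal), 1 point per miRNA tested in both. Filled green points are DLK1-DIO3 miRNAs whose tissue difference had an adjusted p under 0.05. Most of them lie below 0 in the liver and near or above 0 in the fat pad, while miR-200a and miR-200b lie far to the right, at a place that depends on the pseudocount, since both were listed at 0 in the 4 fat pad control samples.

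Outside the region, some miRNAs differed between tissues with little difference in the liver itself. miR-210, the hypoxia miRNA, differed by 0.01 in liver (adjusted p = 0.971) and by -0.90 in fat pad (adjusted p = 0.00161), and miR-25 by 0.01 (adjusted p = 0.971) and -0.63 (adjusted p = 0.00238). The epithelial miR-200a was at 3991 to 19217 in the liver samples of the milk replacer groups, and in the fat pad it was listed at 0 in all 4 control samples and at 0 to 84.8 with milk replacer. miR-103-2 was higher with milk replacer in liver by 0.64, against -0.05 in fat pad (adjusted p = 0.915), a difference of 0.69 (adjusted p = 0.0181). After division of each library by its sum, this tissue difference was 0.28 (adjusted p = 0.496). For miR-210 it was then 0.50 (adjusted p = 0.342) and for miR-25 0.23 (adjusted p = 0.496). miR-31 and miR-378-2 did not differ between tissues past the threshold, with 0.52 (adjusted p = 0.53) and -0.62 (adjusted p = 0.266). In the 4 fat pad control samples miR-31 was at 16.3, 21.7, 9.58 and 77.7, and miR-378-2 at 33093, 75761, 94233 and 107212. miR-2898 was higher in both tissues, by 1.33 in the fat pad (adjusted p = 0.031), and was the 1 miRNA called in both.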

How the data were processed

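Liver RNA was turned into small RNA libraries with a ligation-based kit. For the upstream steps the submitters list bcl2fastq, FastQC and Trim Galore, with DESeq2 for normalization, and give no versions. How reads were assigned to miRNAs, the genome build and the miRNA database are unknown here. The deposited values are normalized counts, which the authors obtained by dividing the counts of each library by 1 size factor over all 48 libraries. Every value of a liver library was a whole multiple of 1 step within 0.01, and values in such steps estimate the reads. The estimated reads were used for depth, shares, thinned libraries and pairs of samples. The unit was not accepted as recovered reads, so count models were not run. The authors' own mean and comparison columns (fold changes and p-values) were not used.

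Groups were taken from the treatment labels. Tests were made with limma (version 3.58.1, R 4.3.3) after log2(value + 1), with a variance trend, over the 17 liver samples (or 33 with fat pad) and miRNAs with a mean of at least 10. The procedure was tested on simulated data, in which the deviations of each miRNA were shuffled between samples separately from those of other miRNAs. Shifts shared within a library were thus absent from it. Depth and detection were compared by exact permutation tests over 6188 arrangements (Python 3.11.15, scipy 1.17.1). In all 40 pairs of liver samples of the same group the counts differed beyond sampling noise (chi-square per degree of freedom at least 83.3). The members, the 17 lists and the tests were chosen with earlier results of these data known. Named miRNAs are those past the threshold with a group mean of at least 50, up to 12 in each direction for milk replacer and up to 5 for each other comparison, the 10 of highest liver mean, and list members, with 1 of each group of numbered copies (42 names in 19 groups). Alternatives changed the pseudocount, filter, scaling, weights, copies, depth and samples. A filter for miRNAs above 0 in every library was added after seeing the data. Gene order came from RefSeq (ARS-UCD2.0), in which 493 of 524 names matched.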

Additional observations from a re-analysis of the deposited data

Results flagged for a closer look

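Among 96 sets of 5 or 6 values of a liver group that were examined for a sample standing apart (about 1 in 20 sets does so by chance), 4 held one, on the log2(value + 1) scale. miR-134 was at 0 in ad libitum replicate 6 and at 0 in restricted replicate 5, both shallow libraries. miR-126-3p was low in ad libitum replicate 15, at 16.41 against 17.46 for the next sample, and miR-30a-5p was high in the same library, at 18.02 against 16.99.

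Milk replacer minus control differed between liver and fat pad, as tested in a single fit, for 17 named miRNAs. The liver minus fat pad difference was -3.48 for miR-376c (adjusted p = 0.0424), -3.41 for miR-134 (adjusted p = 0.0247), -1.72 for miR-376e (adjusted p = 0.0111), -2.01 for miR-299 (adjusted p = 0.00249), -1.38 for miR-493 (adjusted p = 0.0247) and -1.43 for miR-411b (adjusted p = 0.0088). It was -1.61 for miR-380-3p, -1.51 for miR-655, -1.33 for miR-369-3p and -1.48 for miR-382. Outside the DLK1-DIO3 region it was 0.69 for miR-103-2, 0.57 for miR-26a, 0.91 for miR-210, 0.75 for miR-92a-1 and 0.64 for miR-25. Each of these missed the threshold when each library was divided by its sum. The liver minus fat pad difference was -4.09 for miR-200a and -4.03 for miR-200b. These values are set by the pseudocount because both were listed at 0 in the fat pad of all 4 control samples. For miR-383, listed at 0 in all 17 liver samples, the value of -2.93 has no liver difference behind it and restates the fat pad difference. Between ad libitum and restricted feeding in the liver, miR-133a differed by -1.87 (adjusted p = 0.0325).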

How the results depend on the processing

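Among the named miRNAs, 0 of those past the threshold changed sign under any alternative run, while 5 of those not called did so, miR-122, miR-126-3p, miR-143, miR-21-5p and miR-26a in milk replacer against control. For milk replacer against control, the 21 calls became 13 with a pseudocount of 0.1, 46 with sample weights (20 higher, 26 lower) and 13 with log2 estimated reads as a covariate, and 9 to 24 without 1 library. With each library divided by its sum they were 26, of which 1 was higher and 25 lower. The 11 calls for ad libitum became 3 with the covariate and 6 with the samples of the 2 groups only, and 0 to 17 without 1 library. The 21 for restricted feeding became 12 without a filter, 47 with sample weights and 36 with the samples of the 2 groups only, and 5 to 35 without 1 library. The 1 call between feeding levels became 0 with a pseudocount of 0.1, no filter, division by the sum, sample weights, thinned libraries and the samples of the 2 groups only, with 12 to 21 miRNAs at an unadjusted p under 0.05 in limma, and 0 to 1 without 1 library. The 32 calls between tissues became 49 with division by the sum, 67 with sample weights and 13 with the covariate, and 17 to 42 without 1 library.

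For the DLK1-DIO3 miRNAs, the 13 lower calls with milk replacer became 8 with a pseudocount of 0.1 and 22 with sample weights, and 6 to 14 without 1 library. The 7 for ad libitum became 2 with the covariate, and 0 to 8 without 1 library. The 12 for restricted feeding became 20 with division by the sum, 21 with sample weights and 20 with the samples of the 2 groups only, and 5 to 18 without 1 library. The cause of these changes was not tested. The filter for miRNAs above 0 in every library, chosen after seeing the data, gave 21, 12, 27, 1 and 28 calls in the 5 comparisons. Of the named miRNAs, over all comparisons with control or between tissues, 78 of their values under alternatives to the settings and 179 without 1 library missed the threshold that the reported value passed, and miR-148a passed it with sample weights.

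Liver and fat pad samples carry the same numbers in their titles, and the labels do not say what a number marks. Of 16 same-numbered pairs, 11 had a correlation of deviations above 0.1 (range -0.166 to 0.257), and 4 samples correlated best with their own number. With the number as a replicate block, the tissues differed in 34 miRNAs, 8 higher and 26 lower, and all 32 reported calls were among them. Within the liver no number is shared between groups, so no paired analysis was possible there. A planned count model was not run, because the unit of the values was not accepted as recovered reads. Depth limits low miRNAs, since a value of 0 allows up to 5 reads, worth 31 in the shallowest library.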
